A study of Mus musculus with 12 samples.

Results

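The proteasome genes of mouse epidermal myeloid cells were taken as every row of the deposited expression table whose symbol begins with Psm, is followed by a letter from a to g and ends in a number. This rule found 48 of 23420 symbols: 8 alpha and 11 beta subunits of the core, 6 ATPases and 11 other subunits of the regulatory particle, 7 assembly chaperones, and 5 activators or inhibitors. RNA came from epidermal cells sorted for the surface phenotype CD45+CD3-CD11b+MHCII+, which Langerhans cells, the resident antigen-presenting cells of the epidermis, share with other myeloid cells. The 4 groups were wildtype (wt) and Cbfβ2 knockout (KO) mice at day 5 after birth (P5), and wt and KO mice at 1.5 months (1.5M, adult), with 3 libraries of 100 cells each. Cbfβ2 is a splice form of the core-binding factor beta subunit, the partner of the Runx transcription factors. The sources used here do not say how the knockout allele was made, or whether it was limited to a cell type. The libraries of a group are separate library preparations. Separate animals were not stated, so p-values measure only the spread between these preparations, which may be technical.

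The proteasome is the protease that degrades most ubiquitin-tagged proteins of a cell. Its barrel-shaped core consists of alpha and beta rings, and a regulatory particle of ATPases and other subunits recognises, unfolds and feeds in the substrate. In cells of the immune system, or after interferon, the catalytic beta subunits Psmb6, Psmb7 and Psmb5 can be replaced by Psmb9, Psmb10 and Psmb8, which gives the immunoproteasome. Peptides cut by either form are carried by the transporter Tap1/Tap2 into the endoplasmic reticulum and loaded on MHC class I, so these genes matter to antigen-presenting cells.

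Promoter sequence is shown for 3 members, chosen as examples from those that recur in the comparisons below. Their printed stretches hold a match to a searched motif, but so do the search windows of other recurring members, such as Psme4 and Psmb10. The 3 are Psmc1 and Psmd2, which were higher in each P5 KO library than in each P5 wt library, and Psmb5, which was lower there. The sequences are RefSeq's, on GRCm38.p6, from 250 bases before the start site to the first annotated exon of the gene. Each is written 5′ to 3′ on the gene's strand with the matched letters in capitals, and positions are counted back from the start site.
Psmc1, chr12:100109952-100110153, plus strand: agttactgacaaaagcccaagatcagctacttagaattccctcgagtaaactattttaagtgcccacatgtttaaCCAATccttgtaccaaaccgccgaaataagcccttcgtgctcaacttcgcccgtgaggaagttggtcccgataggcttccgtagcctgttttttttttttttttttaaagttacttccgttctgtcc
Psmd2, chr16:20651402-20651651, plus strand: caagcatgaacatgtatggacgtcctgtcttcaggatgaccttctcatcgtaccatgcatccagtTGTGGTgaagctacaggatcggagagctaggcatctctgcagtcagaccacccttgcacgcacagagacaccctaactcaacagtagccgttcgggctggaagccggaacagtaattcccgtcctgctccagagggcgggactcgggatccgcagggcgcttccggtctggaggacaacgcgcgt
Psmb5, chr14:54618023-54618245, minus strand: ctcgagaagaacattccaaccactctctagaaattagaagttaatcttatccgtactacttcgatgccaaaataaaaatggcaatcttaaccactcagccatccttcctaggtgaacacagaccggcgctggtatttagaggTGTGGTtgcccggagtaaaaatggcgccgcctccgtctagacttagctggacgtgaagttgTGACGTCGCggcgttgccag

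In Psmc1 the capitals mark CCAAT, first base at -175. In Psmd2 they mark the core letters of the Runx motif, TGTGGT, at -185. Psmb5 holds TGTGGT at -108 and a match to TGACNNNGC, the letters of the antioxidant response element, at -47. Windows of 300 bases, from 250 before to 50 after the start, were found for 40 of the 48 members, and both strands were searched. TGTGGT was in the windows of 6 of these 40 members (15%: Psma6, Psmb5, Psmb10, Psmc2, Psmd2 and Psme3), against 18.9% of all genes with a window. TGACNNNGC was in 6 of 40 (15%, against 14.0%) and CCAAT in 14 of 40 (35%, against 41.1%). The interferon-stimulated response element was searched as a pair of GAAA blocks with 2 free bases between them. It was in 5 of 40 (12.5%, against 3.99%): Psmb3, Psmd4, Psmd9, Psme1 and Psmg4. TTCNNNGAA, the letters of the gamma-activated site, was in 3 of 40 (7.5%, against 9.55%), Psmb8 among the latter. Matches to different motifs can share bases, and a match is a description of letters, not a binding site.

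The 12 libraries held 30913 to 52208 molecules in the P5 groups and in the adult wt group, and 74620 to 77420 in adult KO. Values below are the authors' molecule counts scaled to the same total in every library, called scaled counts. Molecules are counted at their 3′ end, so that a value does not grow with gene length. Every library was scaled to one total. A lower value can thus mean less of that RNA per cell, fewer of the cells that make it, or more of other RNAs. In bulk samples these cannot be told apart. Cbfb, the targeted gene, was at 4.97, 4.34 and 3.91 in P5 wt and 3.63, 1.45 and 2.40 in P5 KO, without overlap (log2 fold change -0.67, SE 0.39, adjusted p = 0.490, limma). At 1.5M it was 13.8, 7.15 and 10.7 in wt and 1.92, 0.994 and 2.40 in KO (-2.05, SE 0.39, adjusted p = 0.00132), a value that takes in all splice forms of the gene. The summed Langerhans markers (6 genes) made up 0.167% to 0.208% of molecules in P5 wt and 1.05% to 1.31% in 1.5M wt. They made up 0.0259% to 0.0429% in P5 KO, where Cd207 was at 0 in all 3 libraries, and 0.0938% to 0.138% in 1.5M KO. Macrophage markers (7 genes in the table) made up 0.232% to 0.292% in P5 wt and 0.332% to 0.364% in P5 KO. They ran the other way from Langerhans markers in adults, with 0.0199% to 0.0289% in adult wt libraries and 1.09% to 1.21% in adult KO libraries. Keratinocyte genes reached 1.67%, neutrophil genes 0.582% and erythroid genes 0.606% in P5 KO libraries, against at most 0.218%, 0.0105% and 0.00766% in the other groups. T cell receptor complex genes were at 0 outside a single P5 KO library. The part of these differences in the results below was not tested.

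Of the 48 members, 47 passed the filter of a value above 0 in at least 3 libraries and 29 were above 0 in all 12. Psma8, the alpha subunit of germ cell proteasomes, was at 0 in every library, where 3 molecules over a group, or 0.485 to 0.907 scaled counts, could have gone undetected by counting error alone. By mean scaled count over the 12 libraries, 16 members were at 5 or more, 26 at 1 to under 5 and 6 under 1. Means ran from 4.63 for Psma6 to 10.01 for Psma2 among the alpha subunits above 0, from 2.16 for Psmc4 to 4.38 for Psmc3 among the ATPases, and from 2.02 for Psmd12 to 6.01 for Psmd1 among the other regulatory subunits. The assembly chaperones, which help build the rings and the regulatory particle, ran from 0.277 for Psmg1 to 1.72 for Psmg4. Outside Psmb11 and Psmd9 every member value was a whole number of molecules. Psmb11, the catalytic subunit known from cortical epithelium of the thymus, was fractional in 10 libraries, as when molecules are shared with another gene, and its values are uncertain. The variance between libraries of a group was close to what counting alone gives. The median ratio of variance to that of counting was 0.982 over 45 members with whole values, against 0.986 over 4974 other genes of like level, with 3.14 for Psme2 the highest member.

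Proteasome genes held a larger share of the molecules in P5 libraries than in adult libraries of either genotype. The 48 genes together held 0.605% ± 0.00816 (SD, n = 3) of molecules in P5 wt, with libraries from 0.598% to 0.614%. In P5 KO the share was 0.594% ± 0.0711, from 0.534% to 0.673%. In adults it was 0.418% ± 0.0434 in wt, from 0.370% to 0.455%, and 0.466% ± 0.0227 in KO, from 0.452% to 0.492%. All 6 P5 libraries therefore stood above all 6 adult libraries, while wt and KO overlapped within P5 and within 1.5M. The share is a description with no test. Beside it, the 20 highest genes of each library held 14.0% and 13.8% of molecules in P5 wt and P5 KO, and 20.8% and 17.2% in 1.5M wt and 1.5M KO. The order of ages was the same when the ribosomal protein genes or the cell type and sort markers were left out of the total, or when libraries were rescaled by median ratios.

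**Figure D1:**
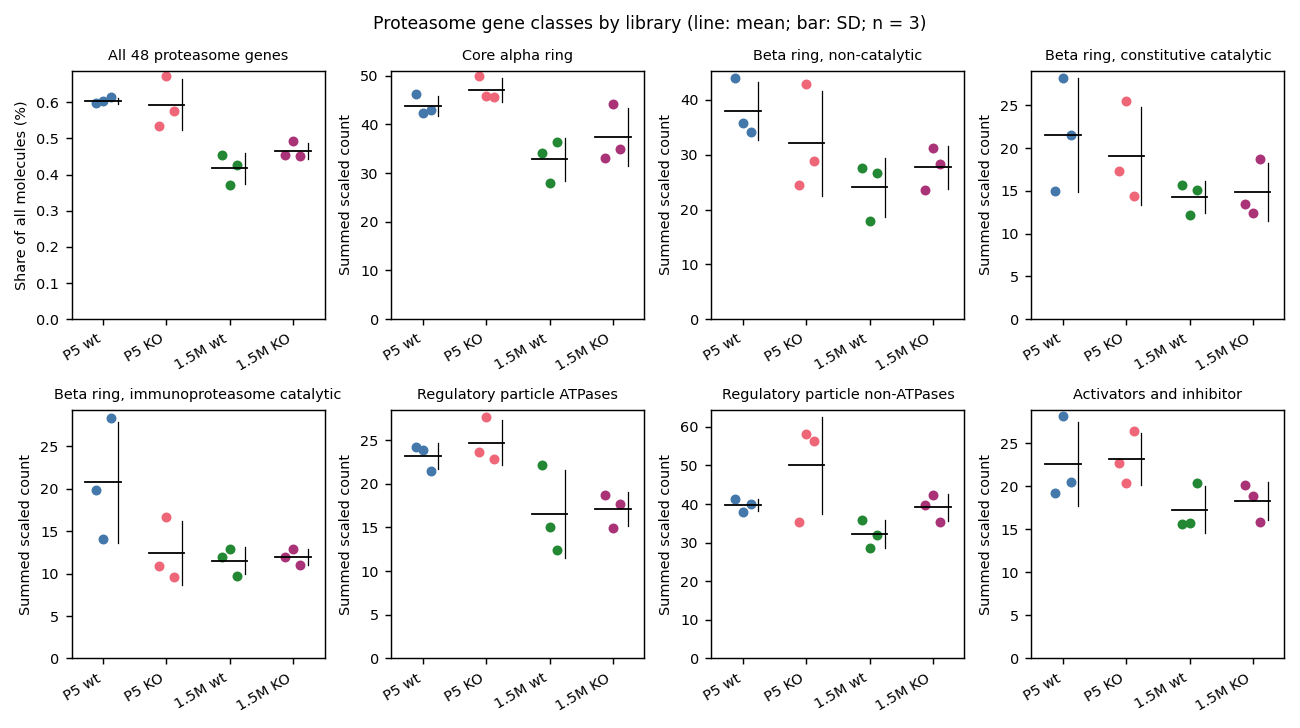
Share of all molecules in the 48 proteasome genes (first panel, %) and summed scaled counts of 7 subunit classes (other panels), by group. Points are libraries, lines means and bars SD (n = 3); all P5 libraries lie above 0.53% in the first panel and all 1.5M libraries below 0.50%.

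The classes shared this order to different degrees. The alpha ring summed to 43.8 ± 2.07 scaled counts in P5 wt and 47.1 ± 2.45 in P5 KO, against 32.8 ± 4.41 in adult wt and 37.4 ± 5.97 in adult KO. The ATPases summed to 23.2 ± 1.46 and 24.7 ± 2.59 at P5 and to 16.5 ± 5.01 and 17.1 ± 1.97 at 1.5M (SD, n = 3 for each). The other regulatory subunits stood at 39.7 ± 1.64 in P5 wt and 39.2 ± 3.44 in 1.5M KO, with libraries from 35.4 to 58.2 in P5 KO and a mean of 32.2 ± 3.66 in 1.5M wt. Among the 47 tested members, 18 had their highest mean in P5 wt and 23 in P5 KO, against 1 in adult wt and 5 in adult KO. The same count was not made over all genes, so it has no background share. The median log2 fold change with age over all genes was also negative, at -0.22 in wt and -0.06 in KO.

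Few single proteasome genes could be told apart between KO and wt at either age. At P5 none of the 47 members passed the threshold (limma, adjusted p under 0.05), against 1.8% of all 10023 genes tested (1.15% called higher and 0.649% lower). An unadjusted p under 0.05 was found for 4 members (8.51%), against 12.8% of all genes. With any 1 of the 12 libraries left out the count was again 0. The members' median log2 fold change was -0.01, with 23 positive and 24 negative, and the median over all genes was also -0.01. In 1.5M KO against 1.5M wt, Psmc1 was higher and no member was lower, where 3.24% of all genes were called higher, 2.04% lower and 5.28% in all. The median was 0.20 over the members and 0.09 over all genes, and 32 members were positive and 15 negative. An unadjusted p under 0.05 was found for 2 members (4.26%), against 14.9% of all genes. An absent call is not a measured lack of change: the 95% interval of the log2 fold change lay within -1 to 1 for 8 members at P5 and 11 at 1.5M, and the interval reached a median of 0.94 to either side of the estimate. Estimates themselves lay between -1 and 1 for 45 of 47 members at each age. Both counts are on the scale of scaled count + 1, where low genes change by more than the fold shows. Psmg1, on 1 molecule in 1.5M wt and 3 in 1.5M KO, was among the 11.

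**Figure D2:**
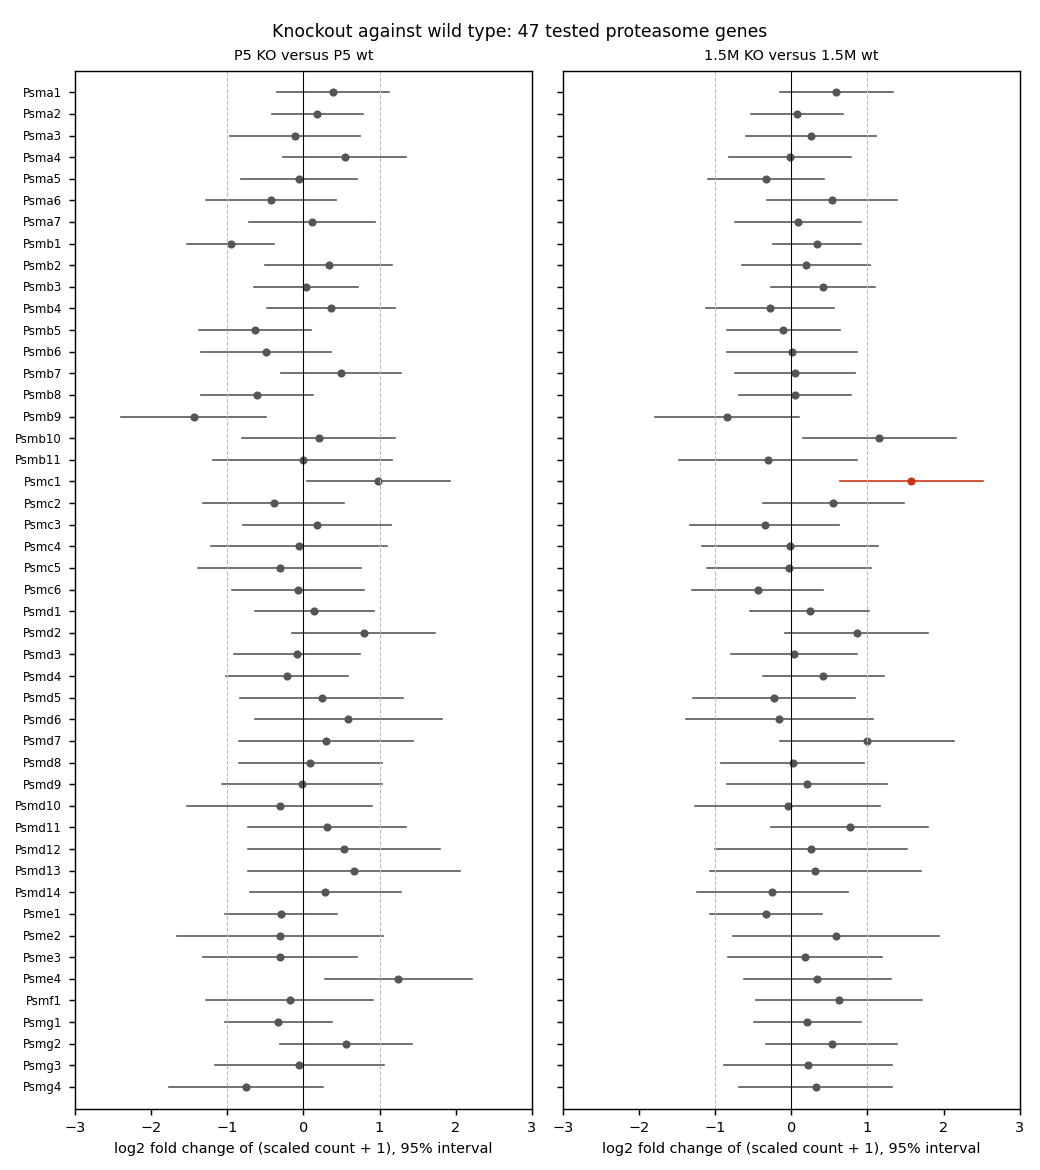
Fitted log2 fold change of (scaled count + 1) with 95% interval for each of the 47 tested members, KO against wt at P5 (left) and at 1.5M (right). Dashed lines mark -1 and 1, and the red point, Psmc1 at 1.5M, is the member with an adjusted p under 0.05.

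Psmc1, an ATPase of the regulatory particle (chromosome 12, 100110154 to 100123405, plus strand, GRCm38), had every KO library above every wt library at both ages and was called at 1.5M. It was at 3.55, 2.17 and 2.93 in P5 wt and 5.45, 7.27 and 7.20 in P5 KO. In adults it was at 0, 3.58 and 0.888 in wt and 6.23, 4.97 and 4.31 in KO. These values rest on 10, 22, 6 and 32 molecules in P5 wt, P5 KO, 1.5M wt and 1.5M KO. The log2 fold change was 1.58 (SE 0.45, adjusted p = 0.0434) at 1.5M and 0.98 (SE 0.45, adjusted p = 0.358) at P5. The adult call is narrow: it was lost with a pseudocount of 0.1 (adjusted p = 0.0912) or 10 (0.0685), with no filter on low genes (0.0549), after quantile normalization (0.0507) and when only the 6 adult libraries were fitted (0.235). It was also lost without 1.5M wt replicate 1 (0.248) or 3 (0.128), without any 1.5M KO replicate (0.111 to 0.181), and without P5 wt replicate 1 or 3 or any P5 KO replicate (0.0501 to 0.0602).

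Psmb1, a beta subunit without catalytic activity (chromosome 17, 15475021 to 15499751, minus strand), was called lower in 1.5M wt than in P5 wt. Its scaled counts were 21.3, 16.3 and 16.6 in P5 wt and 6.36, 10.9 and 9.60 in P5 KO. They were 7.37, 7.87 and 7.11 in adult wt and 9.59, 10.4 and 9.10 in adult KO. P5 wt lay above every other library, and 1.5M KO lay above 1.5M wt. Psmg4, at a lower level, also had its P5 wt libraries above every other library. From P5 wt to 1.5M wt Psmb1 fell by 1.16 on the log2 scale (SE 0.28, adjusted p = 0.0139). With P5 wt replicate 1 left out the adjusted p was 0.0647, above the threshold. The KO effect at P5 was -0.96 (SE 0.28, adjusted p = 0.0891), and its adjusted p was 0.0440 with a pseudocount of 10. At 1.5M the KO effect was 0.34 (SE 0.28, adjusted p = 0.677), with a 95% interval from -0.24 to 0.92. The difference between the KO effects at 1.5M and at P5 was 1.30 (SE 0.39, adjusted p = 0.0997), which did not pass the threshold.

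**Figure D3:**
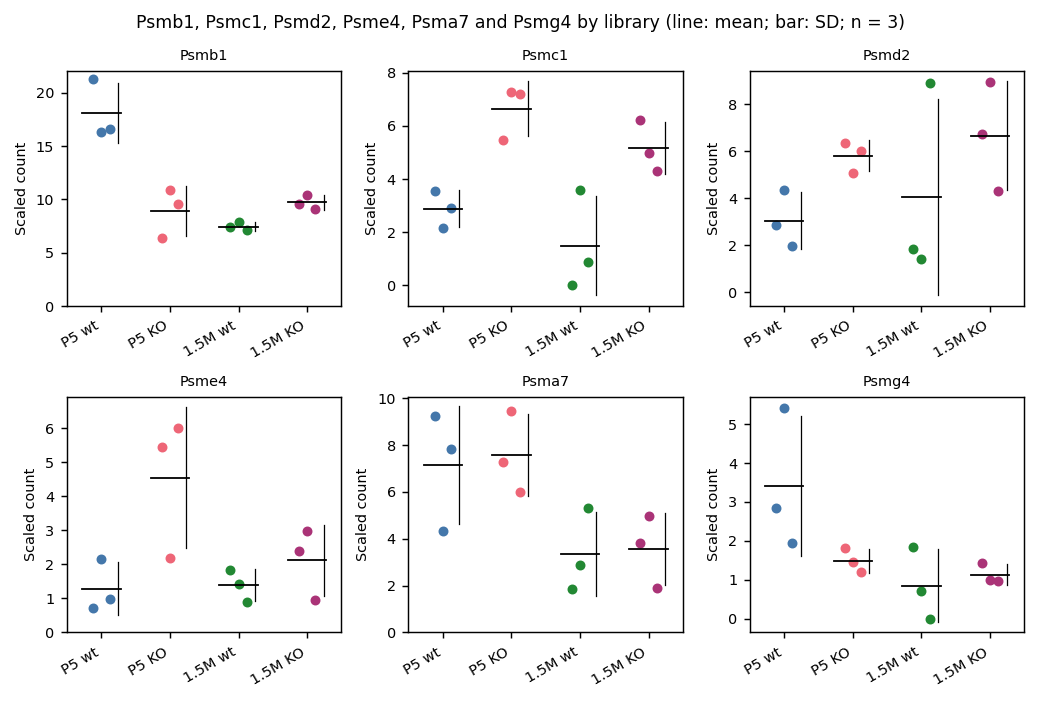
Scaled counts of Psmb1, Psmc1, Psmd2, Psme4, Psma7 and Psmg4 by group. Points are libraries, lines means and bars SD (n = 3); for Psmb1 the P5 wt libraries (16.3 to 21.3) lie above all others, and for Psmc1 the KO libraries lie above the wt libraries of the same age.

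None of the 3 immunoproteasome subunits passed the threshold in any comparison. Psmb9 and Psmb8 are neighbours on chromosome 17, 9957 bases apart with Tap1 between them. Psmb9 and Tap1 lie on opposite strands and overlap at their starts, not at the 3′ ends where molecules are counted. Psmb8, Psmb10 and Psmb7 also overlap a gene on the opposite strand. Where use of strand is unknown, reads within an overlap cannot be told apart. No annotated gene overlaps Psmb1 or Psmc1. Psmb9 (34181987 to 34187764, minus strand) was at 2.84, 5.42 and 3.91 in P5 wt and 0.908, 2.18 and 0 in P5 KO. At 1.5M it was at 3.69, 2.86 and 3.55 in wt and 0.959, 1.99 and 1.44 in KO. The KO libraries lay below the wt libraries at each age, on 13, 4, 12 and 9 molecules in P5 wt, P5 KO, 1.5M wt and 1.5M KO. Neither fold passed the threshold: -1.44 (SE 0.46, adjusted p = 0.136) at P5 and -0.84 (SE 0.46, adjusted p = 0.428) at 1.5M. At P5, 6.02% of all genes had KO libraries wholly below wt, and 4 members did (Psmb1, Psmb5, Psmb9 and Psmg4). At 1.5M it was 7.18% of all genes and 2 members (Psmb9 and Psmd14).

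Psmb8 (34197721 to 34201454, plus strand) was at 15.6, 5.42 and 18.6 in P5 wt and 6.36, 8.73 and 7.20 in P5 KO, which overlapped. In adults it was at 7.37, 7.87 and 6.22 in wt and 8.15, 7.95 and 6.23 in KO. The adult difference was 0.05 on the log2 scale, with a 95% interval from -0.69 to 0.79. From P5 wt to 1.5M wt it was -0.65 (SE 0.36, adjusted p = 0.341), and the adjusted p was 0.0424 without P5 wt replicate 2. Psmb10 (chromosome 8, 105935735 to 105938444, minus strand) had its adult KO libraries above its adult wt libraries. It was at 0.921, 2.15 and 0 in adult wt and 2.88, 2.98 and 3.35 in adult KO, without overlap, on 4 and 19 molecules (1.16, SE 0.48, adjusted p = 0.227). In P5 wt it was at 1.42, 3.25 and 5.86 and in P5 KO at 3.63, 5.82 and 2.40. At 1.5M, 13.9% of all genes had KO libraries wholly above wt, and 4 members did: Psma1, Psmb1, Psmb10 and Psmc1. In adults Psmb9 and Psmb10 were thus both without overlap, in opposite directions, on few molecules and without a call.

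The constitutive partners showed no call. Psmb5 was at 5.68, 11.9 and 6.84 in P5 wt and 5.45, 5.09 and 3.60 in P5 KO (-0.64, SE 0.36, adjusted p = 0.478), and between 3.48 and 6.22 in the adult libraries. Psmb6 had means of 7.19 ± 2.41, 5.22 ± 3.22, 4.28 ± 1.34 and 4.39 ± 1.86 in P5 wt, P5 KO, 1.5M wt and 1.5M KO (SD, n = 3). Psmb7 had means of 6.20 ± 1.80, 9.10 ± 2.27, 5.23 ± 0.690 and 6.10 ± 3.55 in the same order. The summed immunoproteasome subunits over the summed constitutive ones gave a ratio of 1.05 ± 0.477 in P5 wt, with libraries at 1.33, 0.500 and 1.32. In P5 KO the ratio was 0.652 ± 0.0181, and in adults 0.824 ± 0.212 in wt and 0.841 ± 0.230 in KO. The P5 KO libraries, from 0.632 to 0.667, lay inside the range of P5 wt and of 1.5M KO, and the adult ranges overlapped. By the median of the 3 matched log2 ratios the P5 groups did not overlap: P5 KO lay between -1.47 and -0.84 and P5 wt between -0.82 and -0.36. The adult libraries on that measure ran from -0.48 to 0 in wt and from -0.99 to 0.19 in KO, so that 1 P5 KO library lay below all of them. Neither measure was tested. The ratio rests on 70 immunoproteasome and 69 constitutive molecules in P5 wt and on 43 and 66 in P5 KO.

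**Figure D4:**
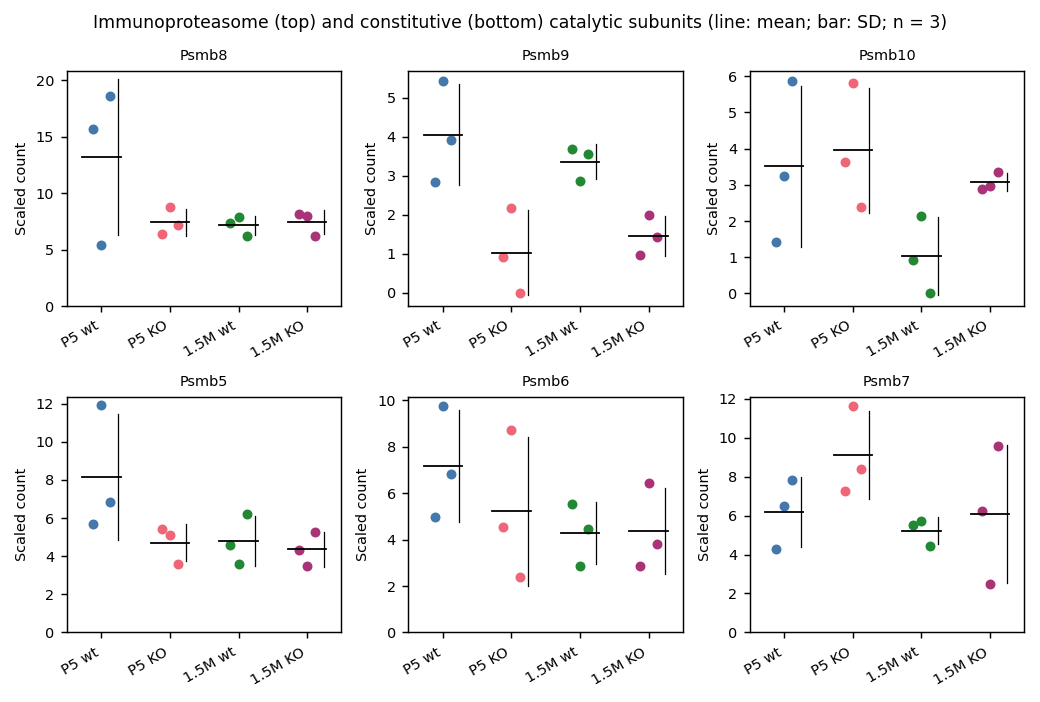
Scaled counts of the immunoproteasome subunits Psmb8, Psmb9 and Psmb10 (top) and the constitutive Psmb5, Psmb6 and Psmb7 (bottom) by group. Points are libraries, lines means and bars SD (n = 3); Psmb9 is lower in KO than in wt libraries at each age, while Psmb8 in the 1.5M groups lies between 6.22 and 8.15.

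The activators open the core without ubiquitin recognition. Psme1 and Psme2, the interferon-responsive pair that caps the core, lie on chromosome 14, 5912 bases apart. Psme1 was at 12.1, 14.1 and 12.7 in P5 wt, 6.36, 10.2 and 16.8 in P5 KO, 7.37, 7.87 and 16.9 in adult wt, and 5.27, 9.94 and 8.62 in adult KO. Its adult KO effect was -0.34 (SE 0.35, adjusted p = 0.769). Psme2 ranged from 0 to 9.08 within P5 KO alone. Psme4, a single-chain activator, was at 0.710, 2.17 and 0.977 in P5 wt and 5.45, 2.18 and 5.999 in P5 KO (1.25, SE 0.47, adjusted p = 0.232). The groups did not overlap, by a margin of 2.17 against 2.18. Together with Psmc1 and Psmd2 it made 3 members with P5 KO libraries wholly above wt, where 6.23% of all genes were. Psme3, the nuclear activator, had means from 1.99 to 2.96, and Psmf1, an inhibitor of the core, from 0.954 to 1.49.

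Psmd2, the scaffold subunit of the regulatory particle, was at 2.84, 4.34 and 1.95 in P5 wt and 6.36, 5.09 and 5.999 in P5 KO (0.79, SE 0.45, adjusted p = 0.490). In adults it was at 1.84, 1.43 and 8.88 in wt and 6.71, 8.95 and 4.31 in KO (0.86, SE 0.45, adjusted p = 0.408). A single wt library at 8.88 carried the adult overlap, and without that library, 1.5M wt replicate 3, the fold was 1.50 (adjusted p = 0.0469). Psma1, an alpha subunit, was at 3.69, 4.29 and 2.67 in adult wt and 4.80, 6.96 and 5.75 in adult KO (0.59, SE 0.36, adjusted p = 0.509). Psma4, another alpha subunit, gave 0.54 at P5 (SE 0.39, adjusted p = 0.624).

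The remaining members named by level or estimate stayed uncalled throughout. Psma5 was the member with its highest mean in 1.5M wt, at 4.86 ± 0.581, 4.83 ± 2.11, 5.35 ± 0.976 and 4.18 ± 1.49 in P5 wt, P5 KO, adult wt and adult KO (SD, n = 3). Psma6 was at 5.37 ± 1.33, 3.83 ± 1.53, 3.80 ± 2.12 and 5.51 ± 1.45 in that order. Psmb4, a structural beta subunit, was at 7.15 ± 4.07, 8.80 ± 2.66, 7.45 ± 2.84 and 6.01 ± 2.55, and Psmb2 had the lowest level of its class, 2.29 to 3.71. Psmd14, the deubiquitinase that strips ubiquitin chains from substrates, was at 4.51 ± 2.94 and 6.86 ± 6.65 at P5. In adults it was at 5.53, 5.72 and 5.33 in wt and 3.84, 4.47 and 5.27 in KO, without overlap. Psmd8 was at 4.96 ± 2.82, 5.89 ± 5.01, 5.36 ± 1.08 and 5.50 ± 1.49 in P5 wt, P5 KO, adult wt and adult KO. Within P5 KO the Psmd8 and Psmd14 values ran from 2.40 to 11.6 and from 1.82 to 14.4, wider than the distance between any pair of group means.

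With age, most members had negative estimates, and 1 was called. From P5 wt to 1.5M wt, 38 of 47 members were negative and 9 positive. Psmb1 was called lower and none higher, where 2.36% of all genes were called higher, 2.84% lower and 5.21% in all. By the unadjusted test 7 members (14.9%) had a p under 0.05, against 18.2% of all genes. The members' median was -0.34, against -0.22 over all genes. Rescaling by median ratios moved these medians to -0.21 and -0.11, and Psmb1 was again called. From P5 KO to 1.5M KO, 34 were negative and 13 positive, with a median of -0.23 against -0.06 over all genes. None was called there, where 3.14% of all genes were (1.72% higher and 1.43% lower). An unadjusted p under 0.05 was found for 2 members (4.26%), against 14.2% of all genes. No member was wholly higher in adults, where 6.06% of all genes were in wt and 8.15% in KO. In wt, 3 members were wholly lower (Psmb1, Psmc2 and Psmg4; 13.2% of all genes). In KO, 5 were (Psma4, Psma7, Psmb11, Psmc3 and Psmd1; 10% of all genes).

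Psma7, an alpha subunit, had like estimates in both genotypes. It was at 9.24, 4.34 and 7.81 in P5 wt and 1.84, 2.86 and 5.33 in 1.5M wt (-0.93, SE 0.40, adjusted p = 0.209). In KO it was at 7.27, 9.45 and 5.999 at P5 and 3.84, 4.97 and 1.92 at 1.5M (-0.95, SE 0.40, adjusted p = 0.265). The KO groups did not overlap and the wt groups did. Psmg4, an assembly chaperone, was at 2.84, 5.42 and 1.95 in P5 wt and 1.84, 0.715 and 0 in 1.5M wt (-1.30, SE 0.49, adjusted p = 0.139). In P5 KO it was at 1.82, 1.45 and 1.20 and in 1.5M KO at 1.44, 0.994 and 0.958. Its P5 wt libraries thus lay above all others, as for Psmb1. Psmb11 had means of 6.49 ± 5.78, 5.36 ± 3.37, 1.80 ± 1.36 and 1.08 ± 0.488 in P5 wt, P5 KO, 1.5M wt and 1.5M KO (SD, n = 3). Its change with age was -1.22 (SE 0.56, adjusted p = 0.254) in wt and -1.51 (SE 0.56, adjusted p = 0.186) in KO.

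**Figure D5:**
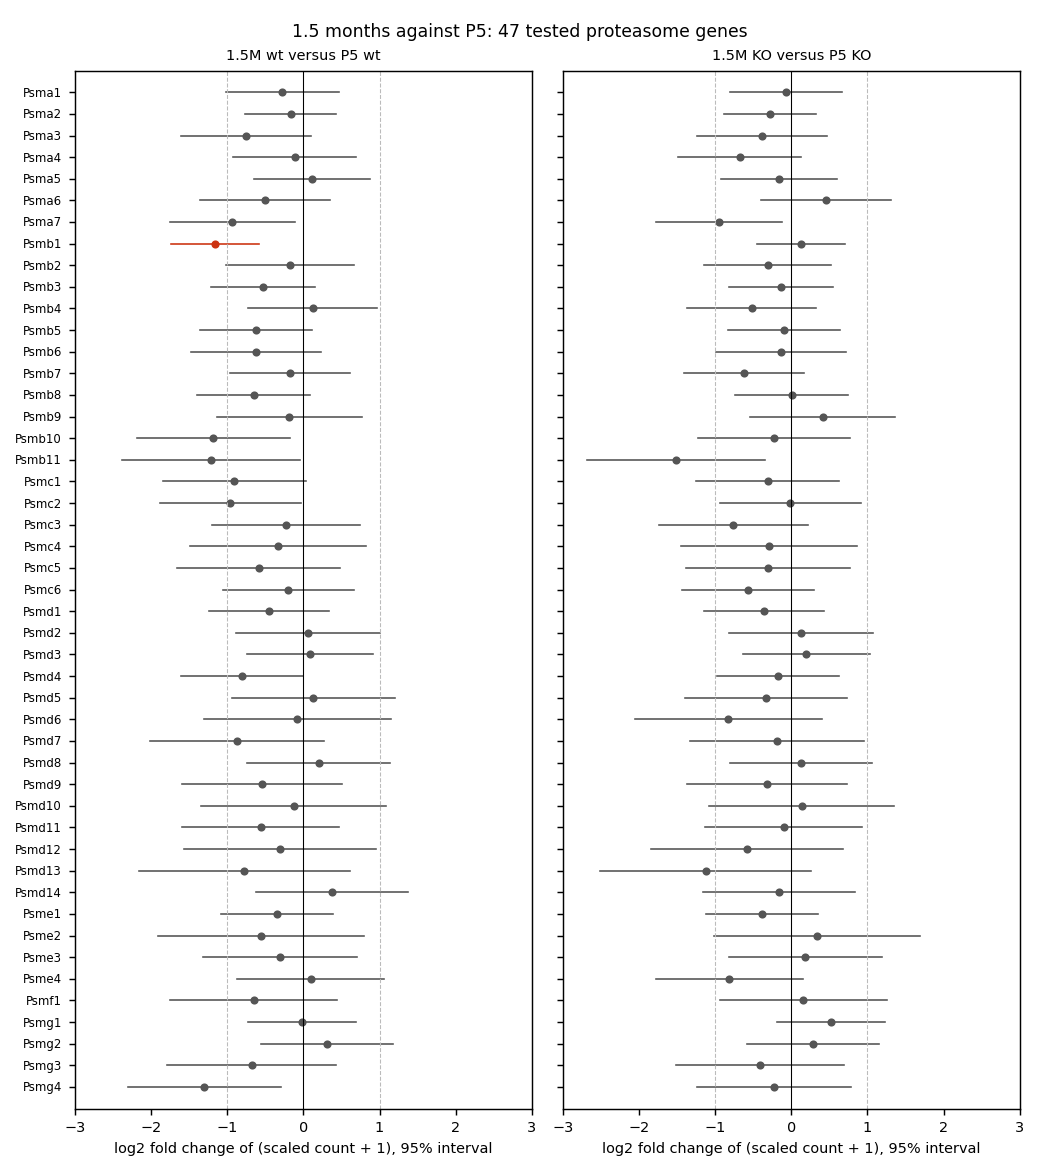
Fitted log2 fold change of (scaled count + 1) with 95% interval for each of the 47 tested members, 1.5M against P5 in wt (left) and in KO (right). Dashed lines mark -1 and 1; most points lie left of 0, and Psmb1 in wt, in red, is the member with an adjusted p under 0.05.

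The difference between the KO effects at the 2 ages was not called for any of the 47 members, where 2.0% of all genes were (1.32% higher and 0.678% lower). By the unadjusted test 1 member (2.13%), Psmb1, had a p under 0.05, against 13.3% of all genes. The comparisons share groups: P5 wt enters both the P5 KO effect and the wt change with age.

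Beyond the subunits, genes were counted that bring substrates to the proteasome or carry its peptides onward. Of 11 genes of the MHC class I peptide route, B2m, the invariant light chain of class I molecules, passed the threshold in all 5 comparisons. It was at 164, 153 and 150 scaled counts in P5 wt, 104, 85.1 and 112 in P5 KO, 98.6, 76.5 and 76.4 in adult wt, and 164, 170 and 166 in adult KO. It fell by 0.64 in P5 KO (SE 0.14, adjusted p = 0.0205) and rose by 0.99 in 1.5M KO (SE 0.14, adjusted p = 5.31e-05). H2-D1, a class I heavy chain, rose in 1.5M KO too (1.04, SE 0.14, adjusted p = 3.93e-05), with fractional values in all 12 libraries. H2-K1, another heavy chain, did not rise there (-0.11, SE 0.31, limma adjusted p = 0.949). The median over the 11 genes was -0.11 in that comparison, where 3.24% of all genes were called higher and 2.04% lower. B2m and H2-D1 fell from P5 wt to 1.5M wt (adjusted p = 0.000247 for B2m and 0.00484 for H2-D1). They rose from P5 KO to 1.5M KO (0.00324 and 0.00295). The transporter genes Tap1 and Tap2 and the loading factor Tapbp passed in no comparison. Tap1, next to Psmb9, was at 7.82, 3.25 and 2.93 in P5 wt and 4.54, 4.36 and 4.80 in P5 KO.

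Of 13 tested regulators of immunoproteasome genes, Ifngr1, Irf1 and Irf8 were called higher in 1.5M KO and none lower. Of all genes, 3.24% were called higher there and 2.04% lower. The median estimate over the 13 was 0.58, and the lowest was Jak2 at -1.22 (SE 0.39, limma adjusted p = 0.0727), not called. Ifngr1, a chain of the interferon gamma receptor, was at 0, 0.715 and 0 in adult wt and 6.23, 4.97 and 11.02 in adult KO (adjusted p = 0.000308). Irf1, a transcription factor that acts on Psmb9 and Tap1, was at 0.921, 0.715 and 1.78 in wt and 6.71, 5.97 and 4.79 in KO (1.70, SE 0.49, adjusted p = 0.0440). In the same comparison the estimates for Psmb9, Psmb8 and Psmb10 were -0.84, 0.05 and 1.16, none of them called. Irf8, a factor of myeloid development, was at 6.45, 3.58 and 0.888 in wt and 9.11, 11.4 and 12.5 in KO (1.57, SE 0.43, adjusted p = 0.0324). Ifngr1, Irf8 and Irf9 fell from P5 wt to 1.5M wt (adjusted p = 0.00156, 0.0352 and 0.0436), where 2.84% of all genes were called lower. Of 18 tested interferon-stimulated genes, Ifi27l2a was higher in 1.5M KO (6.23, 5.97 and 2.40, listed at 0 in all 1.5M wt libraries, adjusted p = 0.00207) and none was lower. It fell from P5 wt to 1.5M wt (adjusted p = 0.0131).

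Of 23 tested partners and genes of the ubiquitin route, Nfe2l2 was called higher in 1.5M KO and none lower. Of all genes, 3.24% were called higher there, and the median over the 23 was -0.03. Nfe2l2 went from 0.921, 3.58 and 1.78 in wt to 8.15, 13.4 and 8.14 in KO (1.88, SE 0.38, adjusted p = 0.00242). Nfe2l2 encodes a stress transcription factor that acts through antioxidant response elements. Uchl5, a deubiquitinase of the regulatory particle, fell from P5 wt to 1.5M wt (-1.69, SE 0.49, adjusted p = 0.0441), where 2.84% of all genes were called lower.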

How the data were processed

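The deposited table holds 1 signal value per gene symbol and library. Judged from its values, the signal the authors deposited counts molecules, rescaled to an equal total per library; 92.6% to 94.9% of values above 0 were whole multiples of 1 step (tolerance 0.01), too few to treat them as recovered counts, so the branch of the plan for normalized values was used. mm10 and TopHat2 are named in the submitters' processing notes; the annotation, counting tool, use of strand and scaling are not given in the sources used here. Spike-in RNA was not used here.

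Values were analysed as log2(scaled count + 1). Genes above 0 in at least 3 of 12 libraries (10023) entered 1 limma 3.58.1 fit (R 4.3.3) of 4 group means with a mean-variance trend; two-sided p-values were adjusted by Benjamini-Hochberg over all tested genes, and 0.05 was the threshold. Low genes change by more than such a fold shows. The script was tested on simulated data in which only genes with a mean of at least 5 were changed, by 4-fold. Most members lie below that mean, so the simulation does not cover them. A count of 0 over a group leaves a level of up to about 3 molecules (0.485 to 0.907 scaled counts) possible by counting error alone. Sums, shares and ratios carry no test. Gene positions are from GENCODE M21. Named are members past the threshold, the catalytic subunits and activators, the 3 largest folds per comparison and direction with a mean of at least 5 in the higher of the compared groups, and the ends of each class by level; other members named were chosen after their values were seen. The members and lists were chosen with earlier results of these data known. Alternatives were pseudocounts, filters, scalings, voom, 6-library fits, a replicate block and leaving out each library. A result for 1 gene of the ubiquitin list is not reported here.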

Additional observations from a re-analysis of the deposited data

Results flagged for a closer look

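The estimates of the KO effect on Psmb1 had opposite signs at the 2 ages, and neither passed the threshold: -0.96 at P5 (SE 0.28, limma adjusted p = 0.0891) and 0.34 at 1.5M (SE 0.28, adjusted p = 0.677). All 3 P5 KO libraries (6.36 to 10.9 scaled counts) lay below all 3 P5 wt libraries (16.3 to 21.3), and all 3 1.5M KO libraries (9.10 to 10.4) lay above all 3 1.5M wt libraries (7.11 to 7.87). Psmb1 was flagged by a search of the members for such opposite non-overlap, so the pattern is not separate evidence. Of all genes, 6.02% had KO wholly below wt at P5 and 13.9% had KO wholly above wt at 1.5M. The difference between the KO effects was 1.30 on the log2 scale (SE 0.39) with a limma adjusted p of 0.0997, so it did not pass the threshold.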

How the results depend on the processing

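Of 608 alternative values for 29 comparisons of named members, 584 kept direction and side of the threshold, 16 lost the call, 4 gained one and 4 changed sign. The cause was not tested for any of them. The count of members called at P5 became 1 (Psmb1) with a pseudocount of 10. At 1.5M it became 0 with a pseudocount of 0.1 or 10, no filter, quantile normalization or the 6 libraries alone, and 0 to 1 with a library left out. In 1.5M wt against P5 wt it was 0 to 2 with a library left out, and in 1.5M KO against P5 KO it became 1 (Psmb11) with voom. The sign changes were Psmb8 in 1.5M KO against wt (-0.0453 with quantile normalization, and -0.0371 to 0.156 with a library left out) and Psme1 there (-0.532 to 0.0155 with a library left out), all uncalled. The P5 KO log2 ratio of immunoproteasome to constitutive subunits was -0.62, and -1.06 as the median of matched pairs; P5 wt went from -0.062 to -0.61, 1.5M wt from -0.31 to -0.25 and 1.5M KO from -0.29 to -0.57, and the P5 groups no longer overlapped. The share of molecules without ribosomal protein genes in the total was 0.729%, 0.697%, 0.488% and 0.533% in P5 wt, P5 KO, 1.5M wt and 1.5M KO. Under 2 settings chosen after seeing the data it was 0.530%, 0.554%, 0.428% and 0.468% in the same order (median ratios), which reverses the order of the P5 means, and 0.633%, 0.464% and 0.500% in P5 wt, 1.5M wt and 1.5M KO (without markers). Counts over all genes moved by over 1.5 times from 180 to 92 (pseudocount 0.1), 118 (no filter) and 0 (6 libraries) at P5. They moved from 529 to 865 (voom) at 1.5M, from 522 to 111 (6 libraries) with age in wt, from 315 to 910 (voom) and 86 (6 libraries) with age in KO, and from 200 to 348 (voom) and 133 (pseudocount 0.1) for the difference. With a library left out they ran from 74 to 154 at P5 (74 without P5 wt replicate 3, 79 without P5 wt 2, 89 without P5 KO 1, 100 to 117 without any 1.5M KO library or 1.5M wt 2). They ran from 336 (without 1.5M KO 2) to 548 at 1.5M, 365 to 569 with age in wt, 143 to 339 with age in KO (143 to 149 without any 1.5M KO library) and 115 to 198 for the difference (115 and 122 without 1.5M KO 3 or 2). Deviations of same-numbered libraries had correlations from -0.02 to 0.02 over 18 pairs. The spread within groups was close to counting error, so such a check could miss a pairing. Whether equal numbers pair libraries stays unknown. With the number as a replicate block 0, 1, 1, 0 and 0 members were called in the 5 comparisons. At 4 to 32 molecules per group, members such as Psmb9, Psmb10 and Psmc1 are limited by depth.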
